A study of Mus musculus with 12 samples.

Results

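The 8 genes Hand1, Eomes, Elf5, Gata2, Gata3, Tfap2a, Tfap2c and Ets2 encode transcription factors of the trophoblast, the embryonic lineage that builds the fetal side of the placenta. They were taken by symbol from a table of 23668 gene rows, and all 8 had a row. Of these, 5 (Hand1, Eomes, Gata2, Tfap2c and Ets2) reached 1 FPKM in at least 3 of 12 libraries, the filter that 12362 genes passed before testing. FPKM, the unit of every level below, counts fragments after scaling for the length of the transcript and the size of the library. RNA was measured in mouse embryonic stem cells labelled as strain SV129 and grown with leukemia inhibitory factor on gelatin. Wild type cells (WT) and cells with the genotype label RARalpha-/-, RARbeta-/-, RARgamma-/- (TKO) were each kept for 24 h with ethanol as vehicle or with 1 uM of all-trans retinoic acid (ATRA), the ligand of these receptors. Each of the 4 groups had 3 libraries, named by the column letters D, F and G. How the receptor genes were disrupted, and whether the TKO cells are 1 clone, was not stated in the sources used here.

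Trophoblast cells are set aside in the blastocyst as the trophectoderm, while embryonic stem cells derive from the inner cell mass and contribute little to the placenta. In the mouse, Gata3, Tfap2c, Eomes, Elf5 and Ets2 act in the trophectoderm or in trophoblast stem cells, and Hand1 and Gata2 act in trophoblast giant cells. Several of these genes also work elsewhere: Hand1 in mesoderm and heart, Eomes in the primitive streak, Gata2 in blood, and Tfap2a and Tfap2c in surface ectoderm, neural crest or germ cells. Retinoic acid is known to drive mouse trophoblast stem cells towards giant cells.

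RefSeq promoter windows (GRCm38.p6, 250 bases before to 50 after a start site) were found for 6 of the 8 genes, 9 windows in all, and not for Hand1 and Tfap2c. The 3 windows of the 2 GATA genes are shown because Gata2 and Gata3 moved in opposite directions under ATRA in WT cells. Capitals mark matches to the AP-2 motif GCCNNNGGC, the kind of site bound by the proteins that Tfap2a and Tfap2c encode. The motif reads the same on both strands, and each window is written 5′ to 3′ along its gene.
Gata2 upstream start (chr6:88193641-88193940, plus strand): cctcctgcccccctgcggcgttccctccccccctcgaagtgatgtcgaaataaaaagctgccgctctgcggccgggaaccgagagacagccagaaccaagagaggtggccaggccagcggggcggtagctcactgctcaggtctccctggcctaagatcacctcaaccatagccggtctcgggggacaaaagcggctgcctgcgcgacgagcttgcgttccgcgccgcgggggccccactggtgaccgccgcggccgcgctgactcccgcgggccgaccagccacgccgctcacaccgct
Gata2 downstream start (chr6:88198414-88198713, plus strand): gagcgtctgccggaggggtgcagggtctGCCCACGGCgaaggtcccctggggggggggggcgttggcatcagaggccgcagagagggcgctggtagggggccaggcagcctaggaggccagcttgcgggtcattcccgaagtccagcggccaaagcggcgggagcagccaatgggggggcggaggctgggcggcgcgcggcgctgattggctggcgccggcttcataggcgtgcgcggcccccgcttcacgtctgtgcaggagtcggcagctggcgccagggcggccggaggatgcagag
Gata3 (chr2:9878551-9878850, minus strand): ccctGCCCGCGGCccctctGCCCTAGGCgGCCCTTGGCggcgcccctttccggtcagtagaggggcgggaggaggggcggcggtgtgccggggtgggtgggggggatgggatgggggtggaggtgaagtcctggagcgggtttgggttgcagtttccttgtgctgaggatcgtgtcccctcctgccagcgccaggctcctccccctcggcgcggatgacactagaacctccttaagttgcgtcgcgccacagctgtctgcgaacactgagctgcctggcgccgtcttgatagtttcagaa

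The Gata3 window held 3 AP-2 matches, the downstream Gata2 window 1, and the upstream Gata2 window 0, while 16.6% of all 32851 windows of this length held at least 1. The Gata2 and Gata3 windows were rich in G and C, at 69.3%, 73.7% and 67.3%, against a median of 52.7% over all windows. None of the 3 windows held the retinoic acid response elements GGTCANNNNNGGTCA or GGTCANNGGTCA on either strand, which stood in 0.0761% and 0.222% of all windows. The shorter receptor site AGGTCA (16.3% of all windows) was also not found in them, nor was the GATA motif AGATAA (11.2%). These matches describe 300 bases of letters and carry no information on binding.

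The libraries read as stem cells in every group. All 10 genes of a pluripotency list passed the filter, and their summed level ranged from 8006 to 9219 FPKM in WT vehicle, 5281 to 6528 in WT with ATRA, 6806 to 7283 in TKO vehicle and 6706 to 7055 in TKO with ATRA. Much of the sum came from Dppa5a, at 4134 to 5006 FPKM in WT vehicle. Of the targeted receptor genes, Rara and Rarg were not silent in TKO, at 7.55 to 9.82 and 11.8 to 17.5 FPKM over the 6 libraries. Rarb was close to the floor of the table there, at 0.0150 to 0.139. The WT vehicle ranges of Rara, Rarg and Rarb were 9.15 to 14.1, 35.8 to 55.8 and 0.235 to 0.506. In WT with ATRA Rarb was at 5.13 to 7.30. These levels say nothing of whether the transcripts were whole. Both TKO libraries of letter G stood apart from letters D and F in Hand1 and Tfap2c and were the highest of TKO in Gata2, so differences between genotypes in these genes are given with and without them. Libraries are a bulk readout, in which fewer cells of a type and less RNA per cell cannot be told apart.

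In WT cells kept with vehicle, Tfap2c was the most abundant of the 8, at 20.6 ± 7.41 FPKM (mean ± SD, n = 3 here and below), followed by Ets2 at 13.1 ± 1.94 and Gata2 at 6.98 ± 2.01. Eomes, Tfap2a and Hand1 lay near 1 FPKM, at 1.17 ± 0.0418, 0.956 ± 0.0981 and 0.764 ± 0.362. Gata3 (0.0778 ± 0.00718) and Elf5 (0.0412 ± 0.0360) were close to the floor of the table. The libraries of Tfap2c, Ets2 and Gata2 did not overlap each other in this group, while those of Eomes, Tfap2a and Hand1 lay close together, between 0.485 and 1.21 FPKM. In TKO vehicle the order changed at the top, with Ets2 at 13.3 ± 1.84 FPKM, Hand1 at 12.7 ± 7.77 and Tfap2c at 8.36 ± 4.41. The Hand1 libraries of TKO vehicle, from 4.26 to 19.6 FPKM, overlapped those of both Ets2 and Tfap2c.

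**Figure D1:**
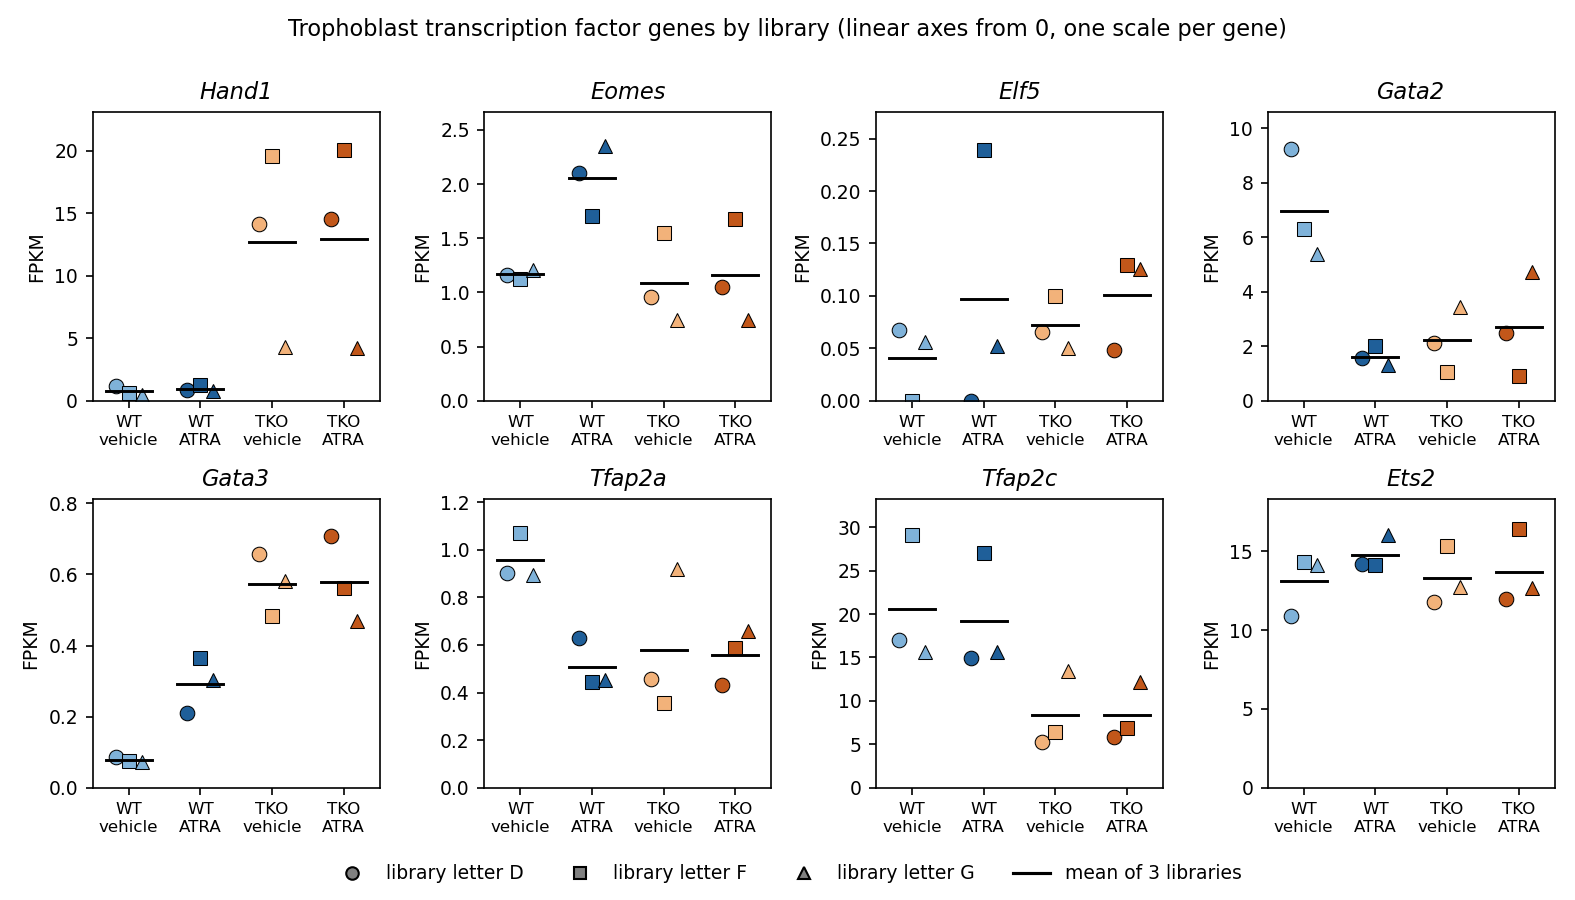
Level of each of the 8 genes in every library (FPKM, linear axes from 0 with 1 scale per gene), by group; symbols give the column letter and bars the mean of 3 libraries. Hand1 sits at 4.22 to 20.04 in the TKO libraries and at 0.485 to 1.25 in WT, and Gata2 is highest in the 3 WT vehicle libraries.

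Set against each other without ATRA, the genotypes differed in 3 of the 5 tested genes. Hand1 was higher in TKO, among 11.8% of tested genes called higher, and Gata2 and Tfap2c were lower, among 12.8% called lower (limma on log2(FPKM + 1), Benjamini-Hochberg adjusted p under 0.05). The same 3 genes were those whose libraries did not overlap between genotypes, which held for 40.4% of tested genes. With ATRA in both genotypes, 16.4% of genes were called higher in TKO and 25.7% lower, and the calls were again 3 of 5: Hand1 higher, Tfap2c and Eomes lower. These 3 also had no overlap, as did 51.8% of tested genes. With median-of-ratios scaling the calls over all genes in this comparison moved from 2023 higher and 3178 lower to 2568 and 2612. Hand1 passed the filter through the TKO libraries, since only 2 WT libraries reached 1 FPKM, so it could pass only by being higher there.

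Adding ATRA to WT cells lowered 1 of the 5 genes, Gata2, where 5.14% of tested genes were called lower, and raised 0, where 11.6% were called higher. Over all genes these were 1428 higher and 635 lower calls, and 1195 and 863 with median-of-ratios scaling. Libraries of the 2 WT groups did not overlap for Eomes and Gata2, as for 34.4% of tested genes. With the letter as a block Eomes was called higher too, as were 33.7% of tested genes. In TKO cells limma called 0% of tested genes between ATRA and vehicle, with 12 genes at an unadjusted p under 0.05. The lowest unadjusted p among the 5 was 0.718. This fit counts the spread between letters as error. With the letter as a block limma called 0 genes, with 354 at an unadjusted p under 0.05. A block fit of the TKO libraries alone called 3, with 829 at that level and 0 of the 5 called. No gene of the 5 separated the TKO libraries by treatment, against 1.33% of tested genes. Without the block, the ATRA effect differed between the genotypes in 5.43% of tested genes and in 0 of the 5. That count was 182 higher and 489 lower genes, and 251 and 376 after quantile normalization. With the block the effect differed in 39.0% of tested genes and in 2 of the 5, Gata2 and Eomes. Libraries of 1 genotype and 1 letter deviated together from their group means, so fits with the letter as a block are given beside a result where they change the call. The comparisons share groups: each of the 4 groups enters several of them.

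**Figure D2:**
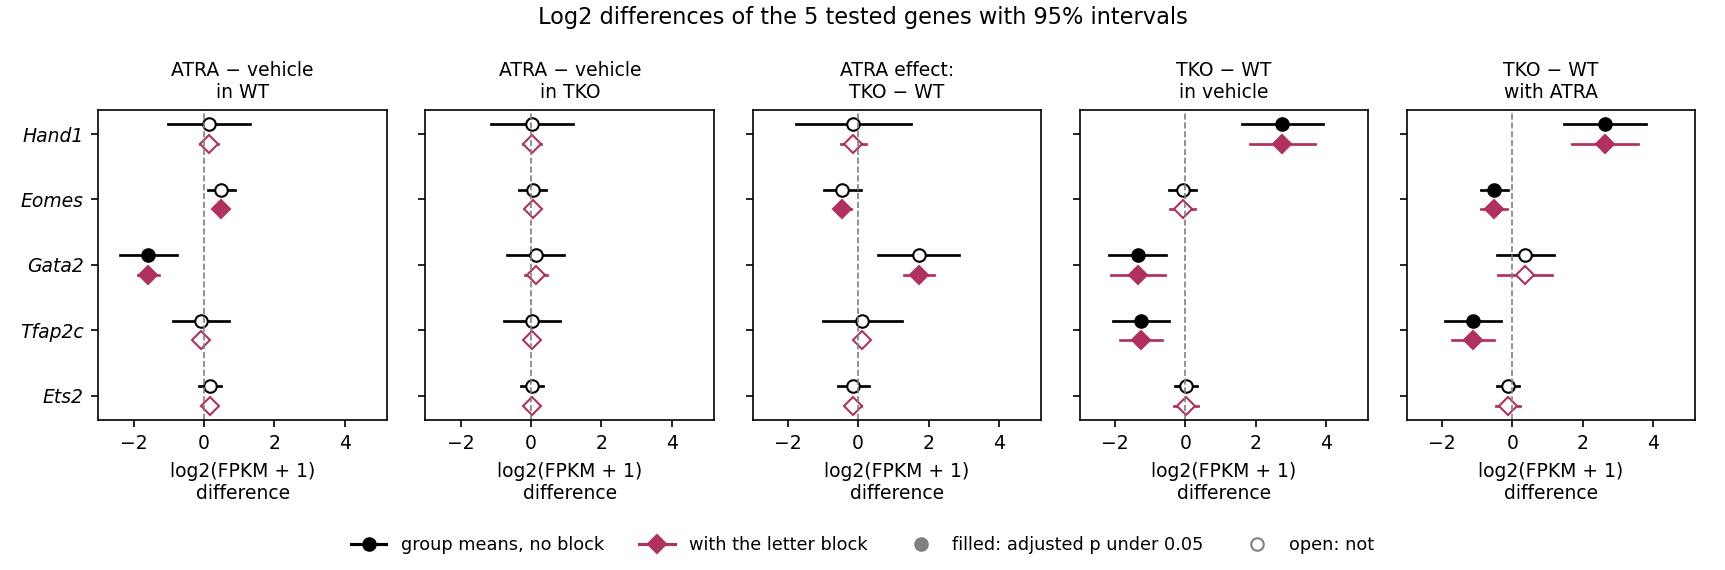
Log2 differences on the log2(FPKM + 1) scale with 95% intervals for the 5 tested genes in 5 comparisons, from group means (black) and with the letter as a block (red); filled symbols had an adjusted p under 0.05. Hand1 is the only point near 3, at 2.76 in vehicle and 2.63 with ATRA.

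Hand1, a basic helix-loop-helix factor needed in the mouse for giant cells and for extraembryonic mesoderm, had the largest difference between genotypes of the 5 tested genes. Its locus is chromosome 11, 57828705 to 57832818, minus strand (GRCm38, GENCODE vM21). In WT vehicle it stood at 1.17, 0.632 and 0.485 FPKM in letters D, F and G, and in WT with ATRA at 0.827, 1.25 and 0.769. In TKO vehicle the values were 14.2, 19.6 and 4.26 FPKM, and in TKO with ATRA 14.5, 20.04 and 4.22. Every TKO library lay above every WT library, and both letter G libraries were the lowest of TKO. The mean level was 16.6-fold higher in TKO with vehicle and 13.7-fold higher with ATRA. The log2 difference was 2.76 ± 0.53 (SE; adjusted p = 0.00381) in vehicle and 2.63 ± 0.53 (adjusted p = 0.00227) with ATRA. Without both letter G libraries of TKO it was 3.34 and 3.22. Hand1 stayed called under each of 23 alternatives in vehicle (2.36 to 3.71) and each of 22 with ATRA (2.22 to 3.40). It passed the filter only through TKO libraries, which fixed its direction in every fit that used the filter.

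The genes on either side of Hand1 showed small differences between genotypes. Genes of chromosome 11 had a median log2 difference of 0.21 between TKO and WT in vehicle, against -0.02 over all tested genes. Hand1 ranked highest of 1062 tested genes of that chromosome, and its difference less the chromosome median was 2.56 (adjusted p = 0.00612). The 10 tested genes nearest to it, from Gm12238 to Igtp, ranged from -0.47 to 0.36, with 1 called higher and 1 lower. With ATRA Hand1 ranked 4th from the top on the chromosome. Both ranks carry the direction that the filter had fixed.

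ATRA left Hand1 without a call in either genotype. The log2 effect was 0.15 in WT (95% interval -1.01 to 1.32, adjusted p = 0.886) and 0.02 in TKO (-1.14 to 1.18). Within TKO the same letter gave nearly the same Hand1 level with and without ATRA. The largest gap between the treatments within a letter was 0.04 log2 units, against 1.97 between letters in vehicle and 2.01 with ATRA. With the letter as a block the intervals narrowed to -0.10 to 0.41 in WT and -0.23 to 0.27 in TKO.

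**Figure D3:**
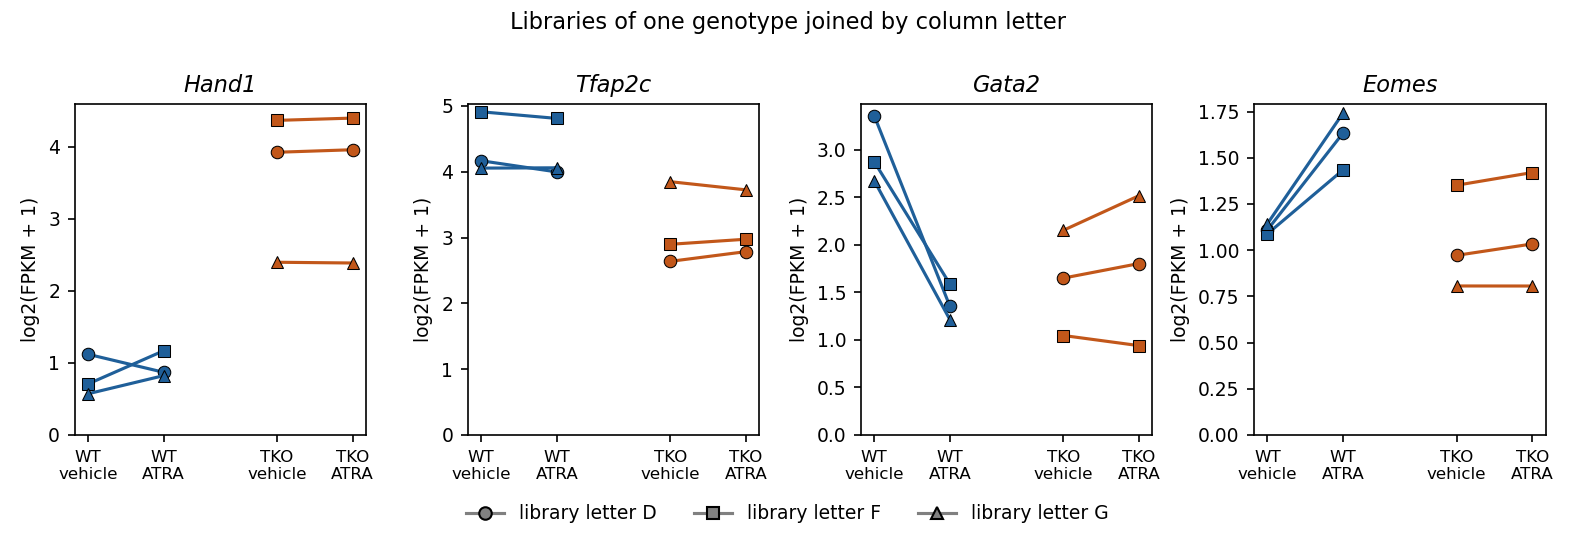
Levels on the log2(FPKM + 1) scale of Hand1, Tfap2c, Gata2 and Eomes, with the libraries of 1 genotype and 1 letter joined between vehicle and ATRA (WT blue, TKO orange). In TKO the lines are nearly flat and the letters far apart, while Gata2 falls and Eomes rises in all 3 letters of WT.

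Some other genes with known expression in trophoblast and in extraembryonic endoderm were also higher in TKO vehicle. Krt18, a simple-epithelium keratin gene, ranged from 5.46 to 6.08 FPKM in WT vehicle and from 14.2 to 47.2 in TKO vehicle. Its TKO libraries ranked by letter as those of Hand1 did (F, D, G). Krt18 was 1 of the 3 genes picked below for a profile like that of Hand1, so this order is a description. Its partner Krt8 ranged from 9.51 to 10.96 and from 13.2 to 49.8 FPKM. Of 15 tested extraembryonic endoderm genes, 10 were called higher in TKO vehicle and 0 lower, with a median log2 difference of 0.72 against -0.02 over all genes. The shares over all tested genes were 11.8% higher and 12.8% lower. Sox17 and Cubn passed the filter through TKO libraries alone, so their direction was fixed by it, and the other 8 were not so bound. With ATRA in both genotypes 6 of the 15 were higher in TKO and 2 lower (Gata6 and Sox7), with a median of 0.16 against -0.07 over all genes. Here 16.4% of tested genes were called higher and 25.7% lower. Sox17 and Cubn were among the 6, which left 4 not so bound. Those called in vehicle include Lamb1, a laminin gene of basement membrane (12.4 ± 0.677 to 29.8 ± 5.68 FPKM), Sox17, an endoderm transcription factor gene (0.494 ± 0.207 to 1.58 ± 0.285), Dab2, an endocytic adaptor gene of visceral endoderm (2.34 ± 0.775 to 7.28 ± 1.61), and the collagen gene Col4a2. The summed level of the 19 genes in that list ranged from 299 to 314 FPKM in WT vehicle and from 402 to 559 in TKO vehicle. Much of it came from Sparc (142 to 155 and 190 to 274) and Lamc1 (61.5 to 68.1 and 75.5 to 85.6). The sums therefore say little of the low genes of the list. The part of the extraembryonic endoderm list in the Hand1 result was not tested. With vehicle, the primitive streak gene T averaged 0.0798 ± 0.0541 FPKM in WT and 0.150 ± 0.0791 in TKO, and its libraries overlapped. Other low genes of the primitive streak and mesoderm list moved in either direction. Wnt3 lay between 0.0250 and 0.0668 FPKM in WT and between 0.147 and 0.200 in TKO, without overlap. For Evx1 these ranges were 0 to 0.0348 and 0.0439 to 0.327. Fgf8 went the other way, at 0.579 to 0.738 and 0.246 to 0.499. All of these genes were under the filter. Kdr, a receptor gene of early mesoderm and endothelium, was at 0.0852 ± 0.0276 and 1.52 ± 0.919 FPKM (log2 difference 1.16, adjusted p = 0.00933), but it passed the filter through TKO libraries alone and so could only be called higher there. The summed level of the primitive streak and mesoderm list ranged from 59.1 to 64.2 FPKM in WT vehicle and from 61.6 to 79.9 in TKO vehicle. Tbx3 alone was at 49.9 to 55.6 and 50.1 to 67.5 FPKM, so these sums say little of the other genes. Snai1 was called higher in TKO vehicle besides Kdr, among 6 tested genes.

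The paralog Hand2 was listed at or near 0 in all groups, with means of at most 0.0526 FPKM. Among the 3 tested genes whose profiles over the 12 libraries were most like that of Hand1 were the growth factor gene Igf2 and Krt18. Their root mean square distances from Hand1, on log2(FPKM + 1) centred on each gene's mean, were 0.39 and 0.43. Igf2 went from 0.677 ± 0.0902 FPKM in WT vehicle to 9.90 ± 5.70 in TKO vehicle. These genes were picked for their likeness, so their levels are a description.

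Of the AP-2 genes, Tfap2c, which is needed in the mouse trophectoderm and in germ cells, was lower in TKO, and Tfap2a was low in all groups. Tfap2c (chromosome 2, 172549593 to 172558622, plus strand) stood at 17.0, 29.1 and 15.6 FPKM in letters D, F and G of WT vehicle, and at 14.96, 27.05 and 15.7 in WT with ATRA. In TKO vehicle it was at 5.22, 6.45 and 13.4 FPKM, and in TKO with ATRA at 5.90, 6.86 and 12.2. The genotypes did not overlap in either treatment, but letter G of TKO came close to letters D and G of WT. The mean was 2.46-fold lower in TKO with vehicle and 2.31-fold lower with ATRA. The log2 differences were -1.25 ± 0.36 (adjusted p = 0.0284) and -1.13 ± 0.36 (adjusted p = 0.0277), and -1.61 and -1.41 without both letter G libraries of TKO. The call in vehicle was lost without letter D (-1.35) or F (-0.98) of WT and without letter D (-1.005) or F (-1.13) of TKO, with adjusted p up to 0.11. The call with ATRA was lost without letter F of WT (-0.87) and without letter D (-0.94) or F (-1.03) of TKO. ATRA itself gave log2 effects of -0.09 in WT (95% interval -0.89 to 0.71) and 0.03 in TKO (-0.77 to 0.83). With the letter block these intervals were -0.23 to 0.05 and -0.11 to 0.17.

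The vehicle difference of Tfap2c was the 6th lowest among 970 tested genes of chromosome 2, while the chromosome's median (-0.03) was near that of all genes. Its 10 nearest tested genes ranged from -0.73 to 0.57. The genes with the most similar profiles were Cdkn3, a cell cycle phosphatase gene, Ccdc107 and Atp5s, at distances of 0.28, 0.28 and 0.29. Cdkn3 went from 14.6 ± 4.76 FPKM in WT vehicle to 5.63 ± 1.91 in TKO vehicle. Of the other AP-2 genes, Tfap2b and Tfap2d had means of 0 to 0.00497 FPKM in every group and Tfap2e of 0.0845 to 0.311.

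Tfap2a (chromosome 13, 40715302 to 40738376, minus strand), which acts in neural crest and surface ectoderm as well as in trophoblast, stayed under the filter. It stood at 0.903, 1.07 and 0.895 FPKM in WT vehicle and at 0.630, 0.444 and 0.453 in WT with ATRA. The TKO values were 0.459, 0.358 and 0.918 FPKM in vehicle and 0.432, 0.588 and 0.657 with ATRA. The WT groups did not overlap, and the mean was 1.88-fold lower with ATRA, while the TKO groups overlapped each other. Fitted over 18910 genes with no filter, the WT effect was -0.37 ± 0.12 (adjusted p = 0.0709). With the letter block added it was called (adjusted p = 0.016), as were 13.9% of genes in that direction. The difference between genotypes was 0.37 and missed the threshold with the block (adjusted p = 0.0803). The annotation places 3 antisense genes over Tfap2a and the strand setting of the counting is not given, so its reads are uncertain.

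With the 4 groups fitted together and no block, Gata2 was the 1 gene of the 5 called with ATRA in WT. It encodes a zinc finger factor of trophoblast giant cells and of blood progenitors and lies on chromosome 6, 88193891 to 88207032, plus strand. In WT vehicle it stood at 9.24, 6.32 and 5.37 FPKM, and in WT with ATRA at 1.55, 2.002 and 1.32. It was lower with ATRA in 3 of 3 letters, and the mean fell 4.30-fold. The log2 effect was -1.58 ± 0.37 (adjusted p = 0.0136), with the letter block 1.6e-05, where 22.0% of tested genes were called lower. Leaving out letter D of the vehicle group (-1.39) or of the ATRA group (-1.57) ended the call without the block, at adjusted p up to 0.0597.

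In TKO, Gata2 stood at 2.14, 1.06 and 3.44 FPKM with vehicle and at 2.49, 0.917 and 4.72 with ATRA, so all TKO libraries lay below the WT vehicle libraries. Letter F was the lowest and letter G the highest of TKO in both treatments. The ATRA effect in TKO was 0.14 (95% interval -0.67 to 0.95). The TKO effect less the WT effect came to 1.72 ± 0.52 and missed the threshold without the block (adjusted p = 0.0899). With the block it passed (adjusted p = 1.9e-04), where 39.0% of tested genes did. It also passed after quantile normalization (1.88) and without letter F of TKO with ATRA (2.13).

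Gata2 was 3.15-fold lower in TKO than in WT with vehicle, a log2 difference of -1.35 ± 0.37 (adjusted p = 0.0216) and of -1.62 without both letter G libraries of TKO. With ATRA the difference was 0.37 (adjusted p = 0.448), and -0.01 without letter G of TKO. The call in vehicle was lost without letter D of WT (-1.16) and without letter D (-1.37) or F (-1.07) of TKO. Chromosome 6 as a whole was lower in TKO, with a median of -0.24 over 589 tested genes, where Gata2 ranked 4th lowest. All 10 tested genes nearest to Gata2, from 8430410A17Rik to Podxl2, were negative (-1.16 to -0.19), and 4 of them were called lower. Less the chromosome median the Gata2 difference was -1.11 and no longer called (adjusted p = 0.0506). Whether the shift of the chromosome bears on Gata2 was not tested further. The genes with the most similar profiles were Tjp3, a tight junction gene, Kcnip2 and Ripply3, at distances of 0.24, 0.31 and 0.33. Tjp3 went from 10.05 ± 2.83 FPKM in WT vehicle to 3.89 ± 0.749 in WT with ATRA.

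Gata3, an early trophectoderm factor acting beside Cdx2 (chromosome 2, 9857078 to 9890034, minus strand), was under the filter and moved the other way from Gata2. It stood at 0.0856, 0.0762 and 0.0715 FPKM in WT vehicle and at 0.211, 0.365 and 0.303 in WT with ATRA. In TKO it was at 0.658, 0.485 and 0.581 FPKM with vehicle and at 0.708, 0.562 and 0.469 with ATRA. The 3 levels did not overlap: WT vehicle was lowest, WT with ATRA lay between, and the TKO libraries were highest with either treatment. The mean was 3.77-fold higher with ATRA in WT and 7.39-fold higher in TKO than in WT with vehicle. In the fit with no filter the WT effect was 0.26 ± 0.07 (adjusted p = 0.0282), where 11.0% of genes were called higher. TKO against WT gave 0.55 ± 0.07 with vehicle (adjusted p = 6.9e-04; 9.29% of genes called higher) and 0.29 ± 0.07 with ATRA (adjusted p = 0.00848; 12.3% called higher). The ATRA effect in TKO was 0.00 (95% interval -0.15 to 0.15). The difference between genotypes of -0.26 was called only with no filter and the block together (adjusted p = 0.0455), as were 18.6% of genes in that direction. In that fit 3 of the 8 genes were called in either direction, beside 26.9% of all genes. All Gata3 values are below 1 FPKM, and the scale understates changes of such genes. The annotation places 2 antisense genes (Gm13256 and 4930412O13Rik) and 1 gene of the same strand (9230102O04Rik) over Gata3, so its reads are uncertain. The gene 4930412O13Rik was at most 0.0177 FPKM and 9230102O04Rik at most 0.0706 in any library, and Gm13256 was not analysed here.

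Among the other GATA genes, Gata6, a factor of primitive endoderm, rose with ATRA in WT from 1.08 ± 0.413 to 11.9 ± 3.68 FPKM (2.61 ± 0.24, adjusted p = 3.9e-05). It was also higher in TKO than in WT with vehicle (1.03, adjusted p = 0.0104). Gata1, a blood factor gene, fell with ATRA in WT from 1.02 ± 0.220 to 0.422 ± 0.0832 FPKM (adjusted p = 0.0202) and was higher in TKO with vehicle at 1.79 ± 0.278 (adjusted p = 0.021). Gata4 missed the threshold in both comparisons (0.70 and 0.64), and Gata5 stayed at means of 0.0149 to 0.524 FPKM. Over 8 tested paralogs of the factors, 2 rose (Ets1 and Gata6) and 2 fell (Etv5 and Gata1) with ATRA in WT. Of all tested genes 11.6% were called higher and 5.14% lower there. In TKO vehicle 3 paralogs were higher (Ets1, Gata1 and Gata6), where 11.8% of tested genes were. Ets1 and Gata1 would not have passed the filter without TKO libraries. With 8 genes these counts are few to set against the shares over all genes.

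Eomes, a T-box factor needed for trophoblast stem cells and for the primitive streak (chromosome 9, 118478212 to 118486132, plus strand), was near 1 FPKM in all groups but WT with ATRA. It stood at 1.16, 1.13 and 1.21 FPKM in WT vehicle and at 2.11, 1.70 and 2.35 in WT with ATRA. In TKO it was at 0.962, 1.55 and 0.749 FPKM with vehicle and at 1.05, 1.68 and 0.748 with ATRA. All 3 letters were higher with ATRA in WT, and the WT groups did not overlap. The mean was 1.76-fold higher, but the log2 effect of 0.49 ± 0.17 missed the threshold (adjusted p = 0.0795). With the letter block it was called (adjusted p = 3.4e-04), as were 33.7% of tested genes called higher. It was also called in fits without a block, of the WT groups alone and without letter F of TKO with ATRA. The ATRA effect in TKO was 0.04 (95% interval -0.34 to 0.42). Its difference from the WT effect was -0.45 ± 0.25 (adjusted p = 0.39), and was called with the block (adjusted p = 0.0076).

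Between genotypes Eomes differed with ATRA and not with vehicle, where the log2 difference was -0.07 (95% interval -0.45 to 0.31). With ATRA it was -0.52 ± 0.17 (adjusted p = 0.0325), which includes the WT response. That call was lost in 9 of 22 alternatives, among them median-of-ratios scaling (-0.46), quantile normalization (-0.33), a fit of those 2 groups alone (-0.52) and the difference less the median of chromosome 9 (-0.38). It was also lost without letter D (-0.50) or G (-0.45) of WT, without letter D (-0.49) or G (-0.38) of TKO, and without both letter G libraries of TKO (-0.38). The antisense gene Gm33460 overlaps Eomes and was not analysed here. Other T-box genes were T, at most 0.314 FPKM by group mean, Tbx21, at most 0.739, and Tbx3, at 45.95 to 56.9.

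Ets2, an ETS factor that acts in trophoblast stem cells and in the extraembryonic ectoderm (chromosome 16, 95702075 to 95721051, plus strand), had the smallest span of group means among the 5 tested genes, 0.17 on the log2(FPKM + 1) scale. Its levels were 10.9, 14.3 and 14.1 FPKM in the WT vehicle libraries and 14.2, 14.1 and 16.1 in those of WT with ATRA. The TKO libraries gave 11.8, 15.4 and 12.7 FPKM with vehicle and 11.98, 16.4 and 12.7 with ATRA. All groups overlapped and no comparison called it. The 95% intervals were -0.15 to 0.49 for ATRA in WT, -0.28 to 0.35 for ATRA in TKO, -0.29 to 0.34 for TKO against WT in vehicle and -0.43 to 0.20 with ATRA. A change of more than 0.49 log2 units in either direction lies outside each of these intervals. With the letter as a block the interval for ATRA in WT was 0.02 to 0.32, which leaves out 0. The effect narrowly missed the threshold in that fit (adjusted p = 0.0548). Elf5, an ETS factor that marks trophoblast stem cells (chromosome 2, 103411688 to 103450989, plus strand), did not exceed 0.239 FPKM in any library. It was listed at 0 in letter F of WT vehicle and in letter D of WT with ATRA, and its groups overlapped throughout. Among their paralogs, Ets1 rose with ATRA in WT from 0.292 ± 0.131 to 1.00 ± 0.305 FPKM (adjusted p = 0.00921), and Etv5 fell from 121 ± 16.1 to 84.6 ± 2.28 (adjusted p = 0.0022).

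The 8 genes were set beside a list of 24 other trophoblast regulators and trophoblast stem cell genes, of which 23 were in the table and 21 were tested. ATRA in WT raised 7 of these and lowered 2, where 11.6% and 5.14% of tested genes were called higher and lower. The median log2 effect was 0.37 against 0.05 over all genes. Dlx3, a homeobox gene of the labyrinth, rose from 0.250 ± 0.0487 to 2.85 ± 1.05 FPKM (1.59 ± 0.16, adjusted p = 6.0e-05), having passed the filter through WT with ATRA alone. Esx1, a homeobox gene of the placenta, rose from 1.49 ± 0.246 to 4.07 ± 0.329 FPKM (adjusted p = 8.4e-05) and Tinagl1, a secreted matrix protein gene, from 3.70 ± 1.05 to 14.4 ± 1.98 (adjusted p = 5.9e-04). Cdh3, the P-cadherin gene, fell from 6.50 ± 1.24 to 2.73 ± 0.498 FPKM (adjusted p = 7.1e-04). The other genes called were Fgfr2, Wnt7b, Sct and Id2, which rose, and Tead4, which fell. In TKO 0 of the 21 were called with ATRA. The effect differed between genotypes for 7 genes, where 5.43% of tested genes were called. It was higher in TKO for Tead4 and Cdh3 and lower for Fgfr2, Esx1, Tinagl1, Dlx3 and Id2. The filter bound the direction of Dlx3 here too.

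In TKO vehicle 9 of the 21 were higher than in WT vehicle and 2 lower (Tead4 and Klf5), where 11.8% and 12.8% of tested genes were. The median was 0.53 against -0.02 over all genes. Id2, an inhibitor of helix-loop-helix factors, went from 3.77 ± 1.24 to 14.5 ± 1.06 FPKM (adjusted p = 2.3e-04) and Krt19, a keratin gene, from 2.18 ± 0.352 to 9.22 ± 4.44 (adjusted p = 0.0025). Sox21, an SRY-box factor gene, went from 0.744 ± 0.257 to 2.24 ± 0.705 FPKM, and would not have passed the filter without TKO libraries. With ATRA 8 were higher in TKO and 6 lower, where 16.4% and 25.7% of tested genes were, and the median was -0.05 against -0.07 over all genes. Sox21 among the 8 and Dlx3 among the 6 passed the filter only through libraries of the genotype where they were higher. That left 7 and 5 not so bound. Cdx2, the homeobox gene that leads the trophectoderm program, had group means of 0.0364 to 0.302 FPKM and stayed under the filter, as did Nr2f2. The embryonic stem cells also express many of these genes, and the summed level of the list ranged from 349 to 412 FPKM in WT vehicle and from 335 to 379 in TKO vehicle. Klf5 alone was at 213 to 259 FPKM in WT vehicle and 96.8 to 148 in TKO vehicle, so the sums say little of the other genes. Genes of differentiated trophoblast were mostly at or near 0: Prl2c2, Prl3b1, Prl4a1, Ctsq and Synb were listed at 0 in all 12 libraries, and 4 of 16 passed the filter. Of these 4, 0 were called with ATRA in WT, and Cdkn1c, a cyclin-dependent kinase inhibitor gene, was lower in TKO vehicle (17.9 ± 5.83 to 7.84 ± 1.31 FPKM, adjusted p = 0.00554).

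**Figure D4:**
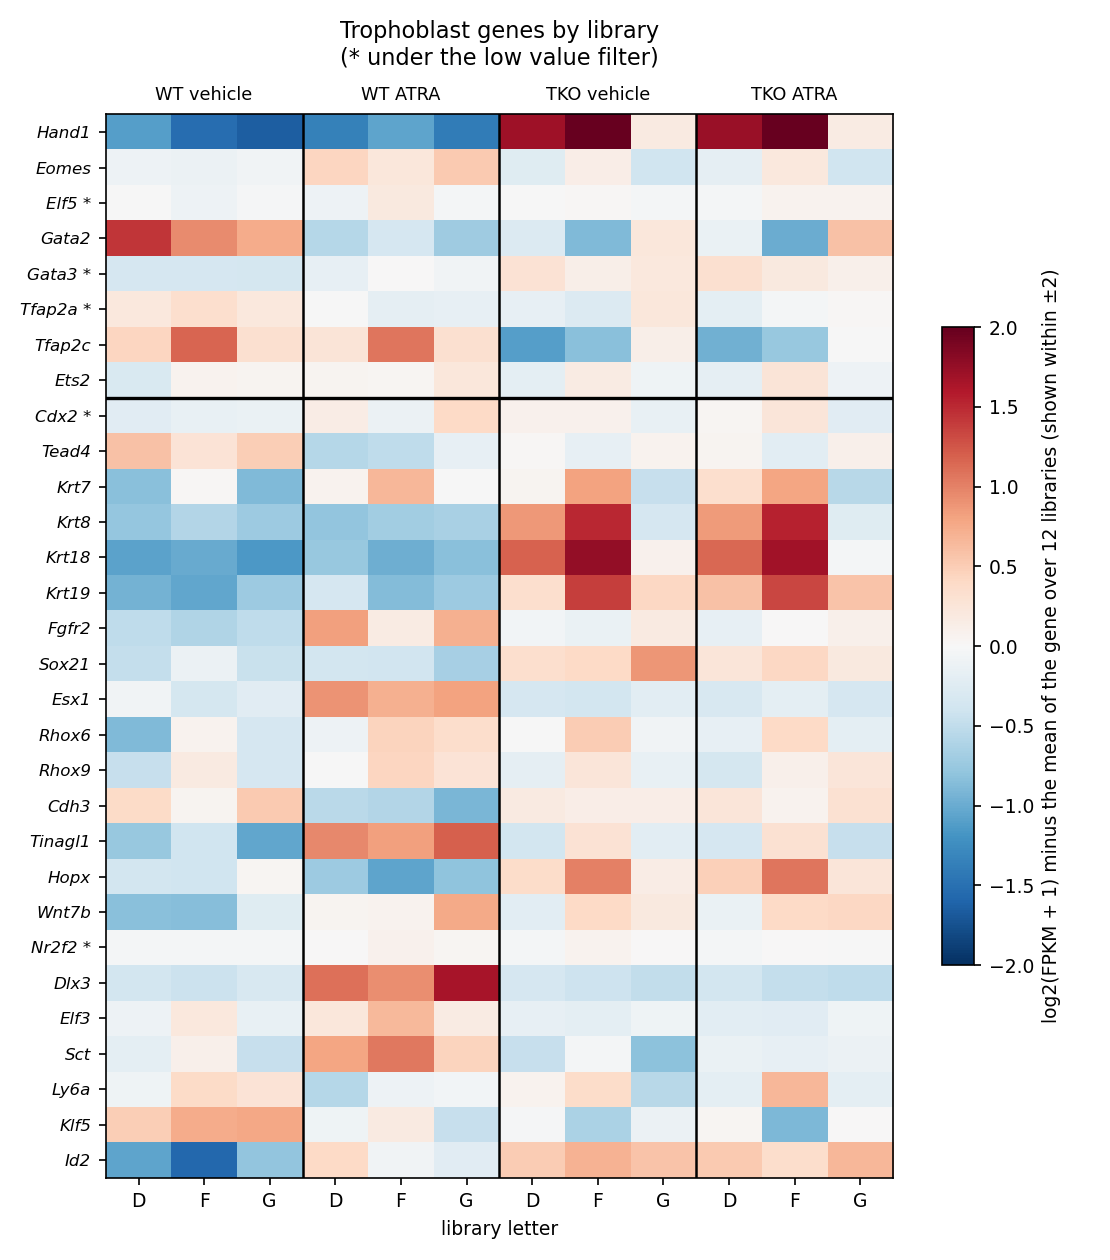
Log2(FPKM + 1) of each gene minus its mean over 12 libraries, for the 8 transcription factor genes (above the line) and 22 trophoblast regulators and stem cell genes (below it); colours saturate at 2 and an asterisk marks genes under the low value filter. Dlx3, Esx1 and Tinagl1 are highest in the 3 WT libraries with ATRA, while Hand1, Krt8 and Krt18 are highest in letters D and F of TKO.

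The remaining lists give the setting of these values. Over all tested genes, 11.6% were called higher and 5.14% lower with ATRA in WT, with a median of 0.05, and 11.8% and 12.8% in TKO vehicle against WT vehicle, with a median of -0.02. Of 21 tested genes of signals that act on trophoblast genes, 11 rose and 1 fell with ATRA in WT, with a median of 0.75, and 8 were higher and 1 lower in TKO vehicle (median 0.21). Of the 11, 2 would not have passed the filter without the libraries of WT with ATRA. The gene that fell was Fgf4, the growth factor that keeps trophoblast stem cells dividing, from 70.0 ± 12.4 to 24.0 ± 5.32 FPKM (adjusted p = 7.2e-05), while its receptor gene Fgfr2 rose from 0.904 ± 0.0715 to 3.16 ± 0.943 (adjusted p = 9.8e-04). In TKO vehicle the Hippo pathway target genes Ctgf, Cyr61 and Amotl2 were at 15.04 ± 2.71, 12.4 ± 2.28 and 35.9 ± 6.89 FPKM, against 2.62 ± 0.546, 1.39 ± 0.401 and 10.9 ± 2.28 in WT vehicle. All 3 were called, at adjusted p of 3.4e-04 or less. The stem cell list fell in 9 of 10 genes with ATRA in WT, led by Zfp42 (544 ± 46.3 to 153 ± 38.7 FPKM), and in 2 of 10 in TKO vehicle, with medians of -0.68 and -0.20. The extraembryonic endoderm list rose in 5 of 15 with ATRA in WT, 1 of which would not have passed the filter without that group, with a median of 0.30. Surface ectoderm, amnion and neural crest genes gave 2 higher and 4 lower of 8 with ATRA in WT (median -0.64) and 3 higher in TKO vehicle (median 0.19), among them Ets1. Of 3 tested blood and endothelium genes, Gata1 was lower with ATRA in WT. Gata1 and Tek were higher in TKO vehicle, and neither would have passed the filter without TKO libraries. Fibroblast and feeder genes gave 2 higher and 1 lower of 5 with ATRA in WT (median 0.07) and 1 higher (Fn1) in TKO vehicle (median 0.04), with few genes to set against the shares over all genes. The fibroblast and feeder list summed to 136 to 189 FPKM in WT vehicle and to 203 to 233 in TKO vehicle. Most of this was Fn1 (62.7 to 94.9 and 114 to 172) and Vim (39.5 to 80.6 and 47.0 to 74.0). Col1a2, Col3a1, Postn, Dcn and Lum had group means of at most 0.0666 FPKM, so the sums say little of them. The part of this list in the differences between genotypes was not tested.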

How the data were processed

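Values are FPKM per gene and library, as deposited by the authors. Their unit rests on the values and on the tools STAR and Cufflinks and the build GRCm38 named, without versions, in the submitters' processing notes. Per the labels' protocols, RNeasy and TruSeq kits were used and reads were single ends of 51 bp. Total depth per library is not known, so counting intervals and count tests could not be had, and the sources used here do not state the strand setting. The libraries held 11397 to 12193 genes at 1 FPKM or more.

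After removal of 18 exact repeats the table held 23668 rows. Log2(FPKM + 1) was fitted in limma 3.58.1 (R 4.3.3) with all 12 libraries and a mean for each group, which leaves 8 residual degrees of freedom. Moderation used the trend and robust options, and tests were two-sided, with Benjamini-Hochberg adjustment over 12362 genes in each comparison and a threshold of 0.05. The scale understates changes of low genes. The script was tested on simulated data. The 8 genes, the gene lists and the alternatives were chosen with earlier results of these data known, and further alternatives were added after seeing the values. The text names the 8 genes, the 3 most similar tested genes for each of them whose group means span at least 1 log2 unit, and up to 4 called genes per list with the smallest adjusted p in WT with ATRA or in TKO vehicle; other list genes named were picked after their values were seen. Some genes that this rule names are not reported here. Lists are described by counts and medians.

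Columns carry letters and sample titles carry replicate numbers, so columns were tied to groups only. Nothing in the labels tells whether libraries of 1 group are separate cultures, so p-values measure the spread between these libraries. Deviations from group means correlated at 0.376 to 0.864 for the 6 pairs of the same genotype and letter, and at -0.515 to 0.287 for the same letter across genotypes. Different letters of 1 genotype gave -0.73 to 0.315. Different letters across genotypes gave -0.405 to 0.6, which reaches above the lowest of the 6 pairs. By this check the letters pair libraries within a genotype, although no label says so. Blocked fits used the letter within genotype as a fixed block, or, between genotypes, as a random block (correlation 0.814). The table's own positions are offset from GRCm38, so coordinates come from the GENCODE vM21 annotation of GRCm38 by symbol, and promoter sequences from RefSeq.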

Additional observations from a re-analysis of the deposited data

Results flagged for a closer look

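In 3 of the 8 genes the ATRA effect differed between the genotypes by the test of the difference itself, in each case in fits that carry the letter of each genotype as a block. With the block this held for 2 of the 5 tested genes, beside 39.0% of all tested genes, and with no filter and the block for 3 of 8, beside 26.9%, so the shares among the 8 genes are near those of all genes. For Gata2 the TKO effect less the WT effect came to 1.72 ± 0.19 (SE, log2; adjusted p = 1.9e-04 in limma). Gata2 fell in 3 of 3 letters of WT and was higher with ATRA in letters D and G of TKO and lower in letter F. For Eomes the difference was -0.45 ± 0.10 (adjusted p = 0.0076), with a rise in 3 of 3 letters of WT. For Gata3 it was -0.26 ± 0.08 (adjusted p = 0.0455), in the fit with no filter on low values, and every Gata3 value was under 1 FPKM. Without the block the adjusted p were 0.0899, 0.39 and 0.188, and Gata2 also passed after quantile normalization and without letter F of TKO with ATRA.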

How the results depend on the processing

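Of the recomputed log2 differences of the 5 tested genes, 477 kept their sign and side of the threshold, 30 uncalled ones changed sign, 11 became called and 22 lost the call. The Hand1 difference between genotypes was called under every alternative run, and Ets2 under none. Hand1 passed the filter only through TKO libraries, so its direction was fixed in the alternatives that used the filter. In WT with ATRA 1 of the 5 tested genes was called, beside 16.7% of all genes. With no filter it was 2 of 8 (14.3%), and in a fit of the compared groups alone 2 of 5 (13.3%). With the letter block it was 2 of 5 (55.7%), as in a block fit of WT libraries alone (46.1%). With no filter and the block together it was 4 of 8 (41.4%). For the difference of the ATRA effects 0 of 5 were called, beside 5.43% of all genes. After quantile normalization it was 1 of 5 (5.07%), and with the replicate block 2 of 5 (39.0%). With no filter and the block it was 3 of 8 (26.9%). Quantile normalization turned the sign of uncalled Hand1 values, to -0.0217 for ATRA in WT and 0.0437 for the difference. Without both letter G libraries of TKO, added after seeing the data, Eomes in vehicle became 0.0475 and Gata2 with ATRA -0.0124, both between genotypes and uncalled. The causes were not tested.

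Leaving out 1 library at a time gave 0 to 2 of the 5 genes called for ATRA in WT, beside 9.62% to 17.6% of all genes. For the difference of effects it gave 0 to 1 (3.28% to 5.74%). For TKO against WT it gave 1 to 3 in vehicle (15.6% to 25.7%) and 1 to 3 with ATRA (32.6% to 44.0%). The uncalled values that changed sign in this way ranged as follows. Tfap2c with ATRA in WT ran from -0.35 to 0.18. For ATRA in TKO, Hand1 ran from -0.56 to 0.62, Eomes from -0.12 to 0.20, Gata2 from -0.25 to 0.54, Tfap2c from -0.25 to 0.39 and Ets2 from -0.0930 to 0.14. The difference of effects ran from -0.72 to 0.46 for Hand1 and from -0.16 to 0.48 for Tfap2c. Between genotypes, Eomes in vehicle ran from -0.23 to 0.0475, Ets2 in vehicle from -0.10 to 0.10 and Gata2 with ATRA from -0.0124 to 0.78.

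Over all genes, 2063 were called with ATRA in WT, 6887 with the letter block, 5695 in the WT block fit and 7824 with no filter and the block, but 1312 and 1189 without letter D of either WT group. The difference of effects went from 671 to 4820 with the block and to 5096 with no filter and the block. It went to 444, 406, 413 and 447 without letter D of WT vehicle, letter D of WT with ATRA, letter D of TKO vehicle or letter G of TKO with ATRA. TKO against WT in vehicle went from 3046 to 1934 and 1942 without letter D of WT or of TKO. Apart from Gata2, Eomes, Gata3 and Tfap2a as given above, the block changed no call of the 8 genes. A fit of fewer groups was not run for the difference of effects, since it needs all 4. Depth is unknown, which limits Gata3, Tfap2a and Elf5, all read at about 1 FPKM or less.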
